A study of Mus musculus with 4 samples.

Results

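Matricellular proteins are secreted into the matrix around cells and mainly instruct cells rather than bear load. The genes described here are tenascin C (Tnc), the thrombospondins Thbs1 and Thbs2, fibronectin (Fn1), periostin (Postn), Sparc, osteopontin (Spp1) and the CCN family genes Ccn2 (also named Ctgf) and Ccn1 (also named Cyr61). They were taken as every probe set that the platform's annotation gives to 1 of these 9 symbols. This gave 13 probe sets for 8 genes, out of 22690 probe sets and 12393 named genes on the array. Spp1 was not analysed here, since no probe set carried its symbol in the annotation used. A further probe set, annotated to both Thbs1 and another gene, Pald1, was left out of the counts and figures. All 8 genes reached the floor, 7.53 on the log2 scale, which is the median of all values.

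The values came from fibroblasts cultured from mouse embryos, of the strain labelled C57/BJ6. There was 1 array for each of 4 groups. These were total RNA labelled Npm1+/- (heterozygote), total RNA labelled Npm1+/+ (wild type), ribosome-bound RNA labelled Npm1+/- and ribosome-bound RNA labelled Npm1+/+, the ribosome-bound RNA, taken by sucrose gradient fractionation, being called polysome RNA here. Npm1 encodes nucleophosmin, a nucleolar protein of ribosome assembly, and the series asks whether its loss shifts which RNAs are held on ribosomes. How the Npm1 allele was inactivated, how many embryos or cultures stand behind a library, and whether both libraries of a genotype label share a culture are not given in the sources used here. With no replicates there is no test, no p-value and no replicate error for any value below. In bulk RNA, fewer cells of a type and less RNA per cell cannot be told apart.

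In fibroblasts these proteins bind integrins, syndecans, CD44 and CD47 at the cell surface and tune adhesion, spreading and growth factor signals. Thrombospondin 1 can activate latent TGF-beta, the CCN genes are known targets of YAP, TEAD and TGF-beta signalling, and fibronectin is the scaffold on which collagens and tenascin C are laid down. Their mRNAs are translated on ribosomes at the endoplasmic reticulum.

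Some facts of the whole series stand beside every genotype comparison. The brighter Npm1 probe set read 11.96 in total RNA labelled heterozygote and 11.91 in that labelled wild type, and 12.84 and 12.93 in the corresponding polysome libraries. The targeted gene did not follow the genotype labels, so directions below are given between libraries by label. The control probe set for B1 repeats read 10.26 in total RNA labelled heterozygote and 13.43 in that labelled wild type. In the polysome libraries with those labels it read 10.19 and 13.47, and its part in the results was not tested. Control probe sets at the 3-prime end exceeded those at the 5-prime end for Actb by 0.02 in total RNA labelled heterozygote and 0.06 in that labelled wild type, and by 0.05 and 0.01 in the polysome libraries with those labels. For Gapdh the excess was 0.12 and -0.01 in total RNA, and -0.02 and -0.09 in polysome RNA, in the same order of labels. The excess was larger at the dimmer control sets, at 0.27 and 0.49 in total RNA and 0.11 and 0.25 in polysome RNA for pyruvate carboxylase, and at 1.47 and 1.72 in total RNA and 1.71 and 1.58 in polysome RNA for the transferrin receptor, and its part in the results was not tested. All 12 fibroblast markers, among them Col1a1, Pdgfra and Thy1, were at or above the floor on every array, with a mean level of 11.27 in total RNA labelled heterozygote, 11.39 in total RNA labelled wild type, 11.58 in polysome RNA labelled heterozygote and 11.72 in polysome RNA labelled wild type.

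The promoters of Tnc and Thbs2, which were lower under the heterozygote label in both kinds of RNA, are shown beside that of Ccn1, which was not. The RefSeq table (GRCm38.p6) held promoters for 6 of the 9 genes. Each line gives the 250 bases before the first annotated start, with any match to 4 motifs in capitals. The strand of all 3 is minus, and the regions are chr4:64047016-64047265 for Tnc, chr17:14694263-14694512 for Thbs2 and chr3:145649986-145650235 for Ccn1.
Tnc: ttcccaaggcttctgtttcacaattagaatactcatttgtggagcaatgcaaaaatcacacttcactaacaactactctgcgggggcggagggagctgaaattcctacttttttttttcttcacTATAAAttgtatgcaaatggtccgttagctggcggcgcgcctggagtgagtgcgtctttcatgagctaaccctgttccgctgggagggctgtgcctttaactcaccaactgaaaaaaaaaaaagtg
Thbs2: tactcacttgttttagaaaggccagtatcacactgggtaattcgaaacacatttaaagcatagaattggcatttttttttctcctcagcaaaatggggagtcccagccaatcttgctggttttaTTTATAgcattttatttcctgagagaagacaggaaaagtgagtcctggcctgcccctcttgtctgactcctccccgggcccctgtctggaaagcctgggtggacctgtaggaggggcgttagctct
Ccn1: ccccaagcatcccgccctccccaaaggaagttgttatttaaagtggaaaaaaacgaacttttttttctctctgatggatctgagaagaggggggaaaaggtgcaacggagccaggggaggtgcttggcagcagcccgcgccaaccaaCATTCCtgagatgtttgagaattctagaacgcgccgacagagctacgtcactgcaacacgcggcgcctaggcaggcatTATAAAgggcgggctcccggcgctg
The motifs, searched on both strands, were the TEAD site CATTCC, the AP-1 site TGANTCA, the CArG box bound by serum response factor, and TATAAA. In Tnc the capitals mark TATAAA at 126 to 121 bases before the start, and in Thbs2 the same motif on the other strand at 126 to 121 bases. In Ccn1 they mark CATTCC at 103 to 98 bases and TATAAA at 25 to 20 bases before the start. Of 32851 promoters of this length in the table, 12.6% held the TEAD letters, 12.4% the TATA letters, 6.75% the AP-1 letters and 1.47% a CArG box. No match to the AP-1 letters or the CArG box was found in these 3 windows. A match is a description of letters and not a bound site.

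Tenascin C and thrombospondin 2 were the members that differed most between the genotype labels. Tnc, and Thbs2 at its brighter probe set, were more than 3-fold lower in the libraries labelled heterozygote, in total and in polysome RNA. At the dimmer Thbs2 probe set the difference was 2.07-fold and 2.41-fold. Thbs1 was lower by 1.64-fold and 1.43-fold at its brighter probe set, and by 2.07-fold and 2.36-fold at the other. Fn1, at its brighter probe set, and Postn were lower by less than 1.5-fold, and Sparc, Ccn2 and Ccn1 differed by at most 0.27 on the log2 scale. The genes were chosen by family, but with these genotype differences of Tnc and Thbs2 already known, so their sizes are a description and nothing is read from how many members passed a size.

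**Figure D1:**
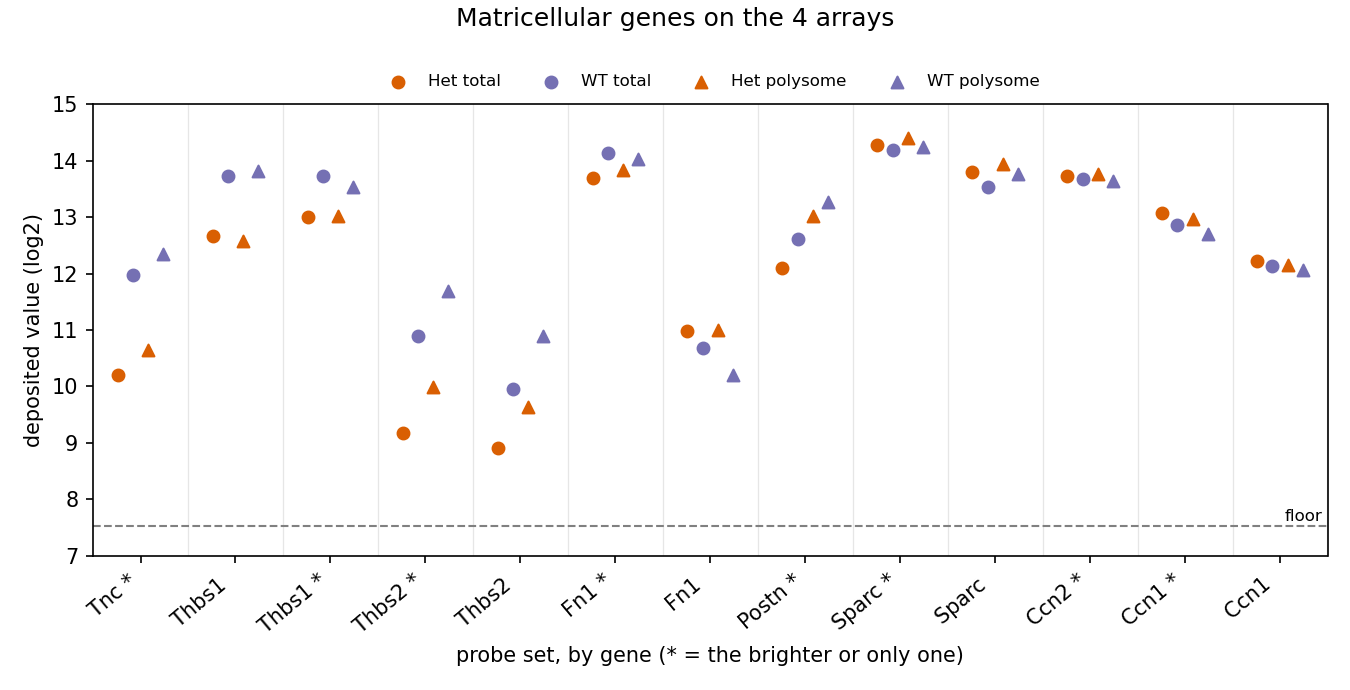
Deposited log2 values (vertical axis) of the 13 probe sets (horizontal axis, by gene; an asterisk marks the brighter or only probe set of a gene), with 1 point per array. Circles are total RNA, triangles polysome RNA, orange the heterozygote and violet the wild-type label, and the dashed line is the floor at 7.53. Both orange points lie below both violet points at Tnc and at each Thbs2 and Thbs1 probe set, while the points of Sparc and Ccn1 lie close together.

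Tnc, which encodes the large adhesion-modulating glycoprotein tenascin C, has 1 probe set (1416342_at). It read 10.21 in total RNA labelled heterozygote and 11.97 in that labelled wild type, a difference of -1.76, more than 3-fold lower. In polysome RNA it read 10.64 under the heterozygote label and 12.35 under the wild-type label, a difference of -1.71 (3.26-fold lower). Both heterozygote values lay below both wild-type values. Among 7179 genes that reached the floor, Tnc ranked 8 from the lowest difference in total RNA and 6 in polysome RNA.

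Thbs2 encodes thrombospondin 2, a matrix glycoprotein known for its part in collagen fibril assembly and for inhibiting blood vessel growth. Its brighter probe set (1422571_at) read 9.17 in total RNA labelled heterozygote and 10.89 in that labelled wild type, a difference of -1.72 (3.29-fold lower). In polysome RNA it read 9.99 and 11.69 under the heterozygote and wild-type labels, a difference of -1.70 (3.24-fold lower). The dimmer probe set (1450663_at) went the same way by less. It read 8.90 in total RNA labelled heterozygote and 9.95 in that labelled wild type (-1.05, 2.07-fold lower), and 9.63 and 10.90 in the polysome libraries with those labels (-1.27, 2.41-fold lower). At both probe sets the heterozygote values lay below the wild-type values.

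Thbs1 encodes thrombospondin 1, an activator of latent TGF-beta and a ligand of CD47. Its probe sets placed it on either side of 2-fold. The brighter (1460302_at) read 13.01 in total RNA labelled heterozygote and 13.73 in that labelled wild type (-0.72, 1.64-fold lower), and 13.01 and 13.53 in the polysome libraries with those labels (-0.52, 1.43-fold lower). The other (1450377_at) read 12.67 and 13.72 in total RNA under the heterozygote and wild-type labels (-1.05, 2.07-fold lower), and 12.58 and 13.82 in polysome RNA (-1.24, 2.36-fold lower). Both probe sets had both heterozygote values below both wild-type values, and in polysome RNA their differences lay 0.72 apart. The left-out probe set shared with Pald1 (1421811_at) read 12.21 in total RNA labelled heterozygote and 12.78 in that labelled wild type (-0.57). In the polysome libraries with those labels it read 12.32 and 12.56 (-0.24). Which of the 2 genes its signal comes from was not tested.

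Over 2700 genes with at least 2 probe sets that reached the floor, the SD of the disagreement between a gene's 2 brightest probe sets, called the probe-set SD, was 0.32 for the genotype difference of total RNA and 0.28 for that of polysome RNA. It is the only technical spread these arrays give. The differences of Tnc and Thbs2 were several times larger than it, at either Thbs2 probe set. It measures disagreement of probes on the same arrays and does not stand in for replicate cultures.

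Fn1, the gene of fibronectin, had probe sets of opposite sign. The brighter (1426642_at) read 13.69 in total RNA labelled heterozygote and 14.13 in that labelled wild type (-0.44, 1.36-fold lower), and 13.83 and 14.02 in the polysome libraries (-0.19). The dimmer (1437218_at) read 10.99 in total RNA labelled heterozygote and 10.68 in that labelled wild type (0.31, 1.24-fold higher), and 11.00 and 10.19 in the polysome libraries (0.80, 1.75-fold higher). The direction of Fn1 between the labels is therefore not settled by these arrays. Which exons or transcript ends each probe set reads was not examined here.

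Postn encodes periostin, a secreted protein that promotes collagen cross-linking. It read 12.09 in total RNA labelled heterozygote and 12.61 in that labelled wild type (-0.52, 1.43-fold lower), and 13.01 and 13.27 in the polysome libraries with those labels (-0.26, 1.20-fold lower). The difference in polysome RNA was smaller than the probe-set SD, and that in total RNA was larger. With a loess trend subtracted they were -0.34, then larger than that SD, and -0.67 in total RNA, then past 1.5-fold.

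Sparc encodes a collagen-binding glycoprotein and was slightly higher under the heterozygote label at both probe sets. The brighter read 14.28 in total RNA labelled heterozygote and 14.19 in that labelled wild type (0.10), and 14.41 and 14.25 in the polysome libraries (0.16). These values stand near the highest value of the whole table, 14.57, as do those of the brighter Fn1 probe set, at up to 14.13. Whether the signal of these or of other bright probe sets was saturated was not tested. The dimmer Sparc probe set gave 0.27 in total and 0.18 in polysome RNA.

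Ccn2 and Ccn1 encode secreted proteins that link integrins to growth factor signals. Ccn2 read 13.74 in total RNA labelled heterozygote and 13.68 in that labelled wild type (0.06), and 13.77 and 13.63 in the polysome libraries (0.14). The brighter probe set of Ccn1 read 13.07 in total RNA labelled heterozygote and 12.86 in that labelled wild type (0.21), and 12.97 and 12.70 in the polysome libraries (0.26), and its other probe set gave 0.10 in both. Each of these was smaller than the probe-set SD.

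By gene, 2 of 8 members were at least 2-fold lower under the heterozygote label in total RNA, where 1.49% of all genes were, and 2 of 8 in polysome RNA, where 1.17% were. No member was 2-fold higher in either, beside 0.237% and 0.0836% of all genes. By probe set, 4 of 13 were at least 2-fold lower in total RNA and 4 of 13 in polysome RNA, beside 2.15% and 1.88% of all named probe sets that reached the floor. At 3-fold, 12 genes were lower in total RNA (0.167%) and 10 in polysome RNA (0.139%), and Tnc and Thbs2 were among them in both. The median member differed by -0.48 in total RNA and -0.22 in polysome RNA, and the median of all 7179 genes by 0.19 and 0.11. Relative to the median gene, Tnc stood at -1.95 and -1.81, Thbs2 at -1.91 and -1.80 and Thbs1 at -0.91 and -0.63, while Ccn1 was at 0.02 and 0.16 and Sparc turned sign in total RNA, at -0.09, with 0.06 in polysome RNA. Ccn2 turned sign in total RNA too, at -0.13, and was at 0.03 in polysome RNA.

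**Figure D2:**
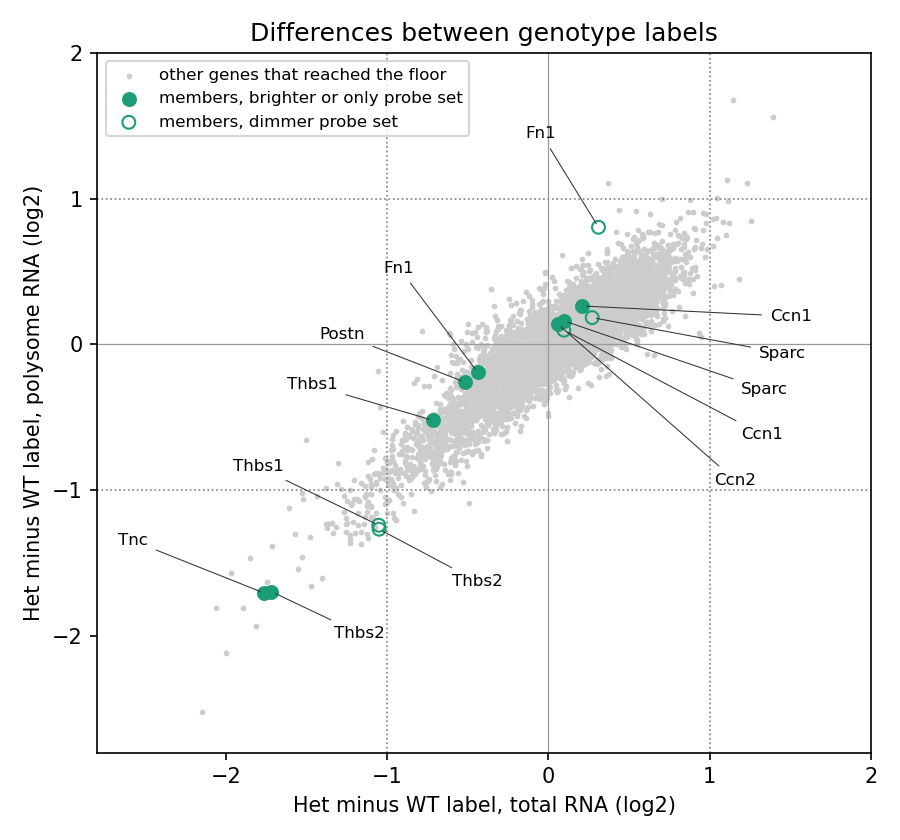
Difference between the heterozygote and wild-type label on the log2 scale, in total RNA (horizontal axis) and polysome RNA (vertical axis), for the genes that reached the floor (grey) and for the members at their brighter or only (filled) and dimmer (open) probe set. Dotted lines mark 2-fold. Tnc and Thbs2 lie together at about -1.7 on both axes, and the open Fn1 point lies above the other members at 0.31 and 0.80.

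Patterns over the 4 arrays were compared by the Euclidean distance between log2 values after each gene's own mean was subtracted. The genes nearest to Tnc among the 7179 were Zfp931 (distance 0.14), Snhg8 (0.25) and Cops9 (0.27), and Thbs2 came at rank 10 (0.40). The genes nearest to Thbs2 were Tnc (0.40), Zfp931 (0.53) and Mt1 (0.54). Thbs1 stood at rank 468 from Tnc and rank 596 from Thbs2, and Ccn1 at ranks 4688 and 5141. The long non-coding host transcript Snhg8 and the COP9 signalosome subunit gene Cops9 are not matrix genes, and Zfp931 read below the floor, at 6.04 and 6.38, in the total and polysome libraries labelled heterozygote.

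Between the fraction labels, periostin and thrombospondin 2 were higher in polysome than in total RNA whichever the genotype label, and tenascin C was higher by less. The other members differed little at their brighter or only probe set, while the dimmer Fn1 probe set was 1.40-fold lower in polysome than in total RNA with the wild-type label. No member reached 2-fold in either direction, beside 0.404% of all genes at least 2-fold higher and 0.362% lower under the heterozygote label, and 0.529% and 0.39% under the wild-type label. At 1.5-fold, 2 of 8 members (Postn and Thbs2) were higher under each label, beside 2.24% of all genes under the heterozygote label and 3.65% under the wild-type label. Under the wild-type label Postn was past 1.5-fold on the deposited scale only: it was at 0.54 with the arrays centred on their medians, 0.55 with quantile normalisation and 0.56 with a loess trend subtracted, each below 1.5-fold. These comparisons share no array with each other, but each shares its arrays with the genotype comparisons.

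**Figure D3:**
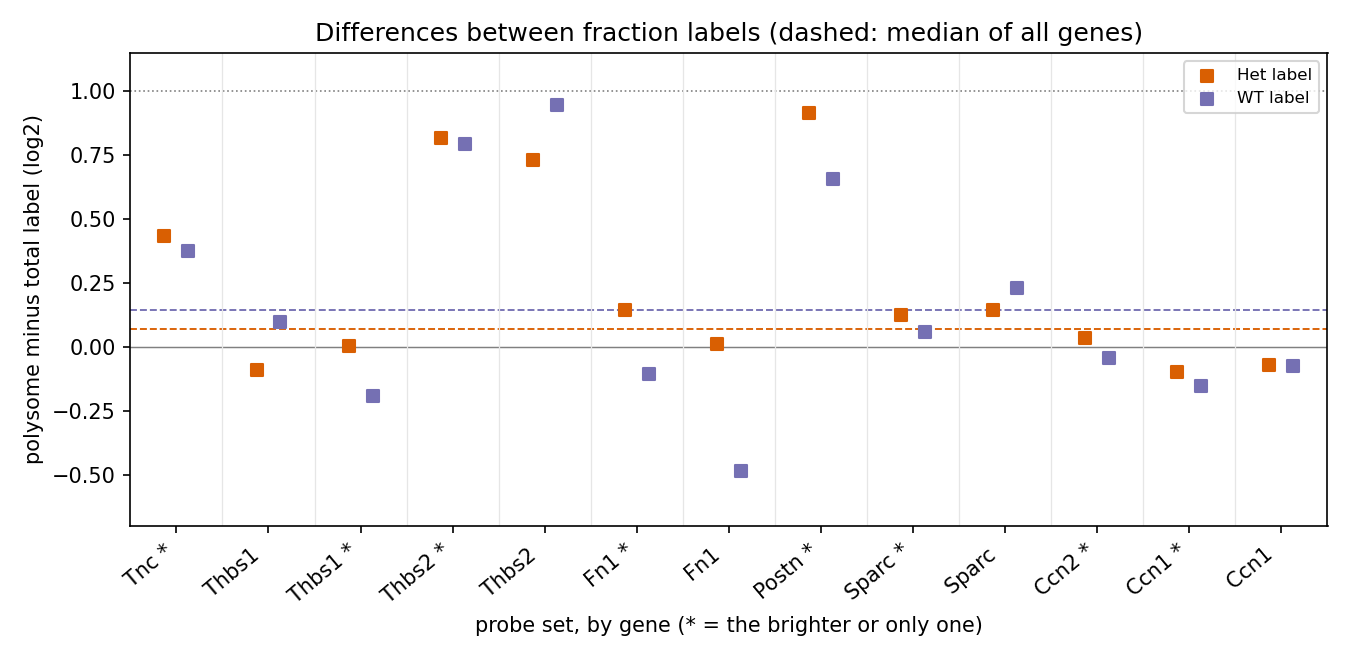
Difference between the polysome and total label (vertical axis, log2) for the 13 probe sets (horizontal axis; an asterisk marks the brighter or only probe set), under the heterozygote (orange) and wild-type (violet) label. Dashed lines are the medians of all genes, 0.07 and 0.14, and the dotted line is 2-fold. Postn and both Thbs2 probe sets lie between 0.66 and 0.95, and the dimmer Fn1 probe set is lowest, at -0.48 under the wild-type label.

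Postn read 13.01 in polysome RNA and 12.09 in total RNA labelled heterozygote, a difference of 0.92 (1.89-fold higher). Under the wild-type label it read 13.27 in polysome RNA and 12.61 in total RNA, a difference of 0.66 (1.58-fold higher). Among all genes it ranked 35 from the highest under the heterozygote label and 161 under the wild-type label. Thbs2 differed by 0.82 (1.76-fold) under the heterozygote label and 0.79 (1.73-fold) under the wild-type label, with 0.73 and 0.95 at its dimmer probe set, and ranked 50 and 83. Tnc differed by 0.43 (1.35-fold) and 0.37 (1.30-fold). On the deposited scale each of these exceeded the probe-set SD of that comparison, 0.24 under the heterozygote label and 0.28 under the wild-type label. Tnc under the wild-type label did not with the 3 other scalings, which put it at 0.26.

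The other members lay near or below the median gene, which differed by 0.07 under the heterozygote label and 0.14 under the wild-type label. Sparc was at 0.12 and 0.06, Ccn2 at 0.04 and -0.04 and Ccn1 at -0.10 and -0.15. With the arrays centred on their medians, or a loess trend subtracted, Sparc turned sign under the wild-type label, and Ccn2 turned sign under the heterozygote label, there also with quantile normalisation. All 3 of these scalings also put Thbs1 below 0 under the heterozygote label. Thbs1 was at 0.00 under the heterozygote label and -0.19 under the wild-type label at its brighter probe set, and at -0.09 and 0.10 at the other. Fn1 was at 0.15 and -0.10 at its brighter probe set and at 0.01 and -0.48 at the dimmer. Most macrophage markers were higher in polysome than in total RNA. Ptprc, below the floor, was lower, at -0.32 under the heterozygote and -0.21 under the wild-type label. Csf1r and Cd14 were lower under the heterozygote label only, at -0.22 and -0.03. Of 14 macrophage markers on the array, 9 were at or above the floor in polysome RNA labelled heterozygote, 7 in polysome RNA labelled wild type and 3 in each total library. Their summed log2 level was 106.7 and 103.3 in polysome RNA labelled heterozygote and wild type, and 92.7 and 89.1 in total RNA. Their part in the members' fraction differences was not tested, and whether the fractions of a label come from 1 culture is not known here.

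Whether the polysome association of a gene differed between genotype labels is given by the polysome-minus-total difference under the heterozygote label minus that under the wild-type label. No member and no gene of the 7179 reached 2-fold either way (0% called in each direction), and no member reached 1.5-fold, beside 0.139% of all genes lower and 0.167% higher. Over the members it was largest for Postn (0.26) and Fn1 (0.25), then Thbs1 (0.20), Ccn2 (0.08), Sparc (0.07), Tnc (0.06), Ccn1 (0.05) and Thbs2 (0.02). All 8 were above 0, where 32.9% of all genes were and the median gene was at -0.07, but 3 of 13 probe sets were below 0, namely the dimmer ones of Thbs1 (-0.19), Thbs2 (-0.22) and Sparc (-0.09). The probe-set SD was 0.22 here. Of the 13 probe sets, only those of Postn and Fn1, the dimmer Fn1 one at 0.49, exceeded it on the deposited scale. Thbs1 did too with quantile normalisation (0.26). The left-out probe set shared by Thbs1 and Pald1 was at 0.33 on the deposited scale. The low level of Tnc and Thbs2 under the heterozygote label was thus as large in polysome RNA as in total RNA on the deposited scale, to within 0.06 and 0.02 at the brighter or only probe sets.

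Genes related to the members were taken from lists chosen with earlier results of these data known. Of 10 other tenascin, thrombospondin and CCN genes, 4 reached the floor. The entry for the tenascin gene Tnn was matched by a shared name to another gene, Tro, below the floor, and is not counted as measured. Thbs3, another thrombospondin, was at -1.01 between the genotype labels in total RNA and -1.04 in polysome RNA, from 1 dim probe set at 7.05 under the heterozygote label and 8.07 under the wild-type label in total RNA. The CCN genes Ccn3 (-0.07 and 0.06), Ccn4 (0.55 and 0.27) and Ccn5 (0.25 and 0.11) were not 2-fold apart. In the fraction comparison Ccn3 was at 0.79 under the heterozygote and 0.67 under the wild-type label, and Ccn5 at -0.74 and -0.60. The list median between genotype labels was 0.09 for total and 0.08 for polysome RNA.

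Of 19 other matricellular genes, 10 reached the floor, with a median of -0.10 in total RNA and -0.18 in polysome RNA. Nid1, which encodes the basement membrane linker nidogen 1, was at -1.31 in total RNA and -0.81 in polysome RNA, and at -1.36 and -1.24 at its other probe set. No other gene of this list that reached the floor was 2-fold apart in any comparison at the probe set that stands for it. Spock3, a testican proteoglycan gene below the floor on all 4 arrays and looked up after its values were seen, read 5.50 in polysome and 4.41 in total RNA labelled heterozygote (1.09), and 5.47 and 4.18 in those labelled wild type (1.30).

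Of 19 receptor genes, 17 were on the array and 10 reached the floor, with a median genotype difference of -0.43 in total RNA and -0.39 in polysome RNA. Itga8, the integrin alpha subunit that binds tenascin C, fibronectin and osteopontin, was at -1.01 and -1.09, and it was also at least 2-fold lower in polysome than in total RNA. It read 6.26 in polysome and 7.34 in total RNA labelled heterozygote, and 7.36 and 8.36 in those labelled wild type. All but the last lie below the floor, so the sizes of its folds are uncertain. Sdc4, a heparan sulfate proteoglycan that binds fibronectin together with integrins, was the other way, at 1.11 and 1.13, and at 0.62 and 0.80 at its dimmer probe set. At the probe sets that stand for them, 1 of 10 receptors was at least 2-fold lower under the heterozygote label in each kind of RNA. Of all genes, 1.49% were in total RNA and 1.17% in polysome RNA. Likewise 1 of 10 was at least 2-fold higher in each, beside 0.237% and 0.0836% of all genes. The counts depend on the probe set chosen. Both dimmer Itgav probe sets were at least 2-fold lower in both kinds of RNA, and the dimmer Itga5 one in polysome RNA.

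Of 30 regulators and targets of YAP and TGF-beta signalling, 28 were on the array and 24 reached the floor. Their median genotype difference was 0.31 for total and 0.29 for polysome RNA, beside 0.19 and 0.11 for all genes. In each, 7 of 24 were below 0, beside 33.6% of all genes in total RNA and 36.6% in polysome RNA. Ltbp1 and Ltbp2, which encode latent TGF-beta binding proteins of the matrix, were the members past 2-fold. Ltbp1 read 9.88 in total RNA labelled heterozygote and 10.98 in that labelled wild type, and 9.97 and 11.09 in the polysome libraries. Ltbp2 read 9.86 and 10.96 in total RNA, and 9.60 and 10.78 in polysome RNA, in the same order of labels. The remaining 22 genes were within 2-fold in every comparison at the probe sets that stand for them.

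**Figure D4:**
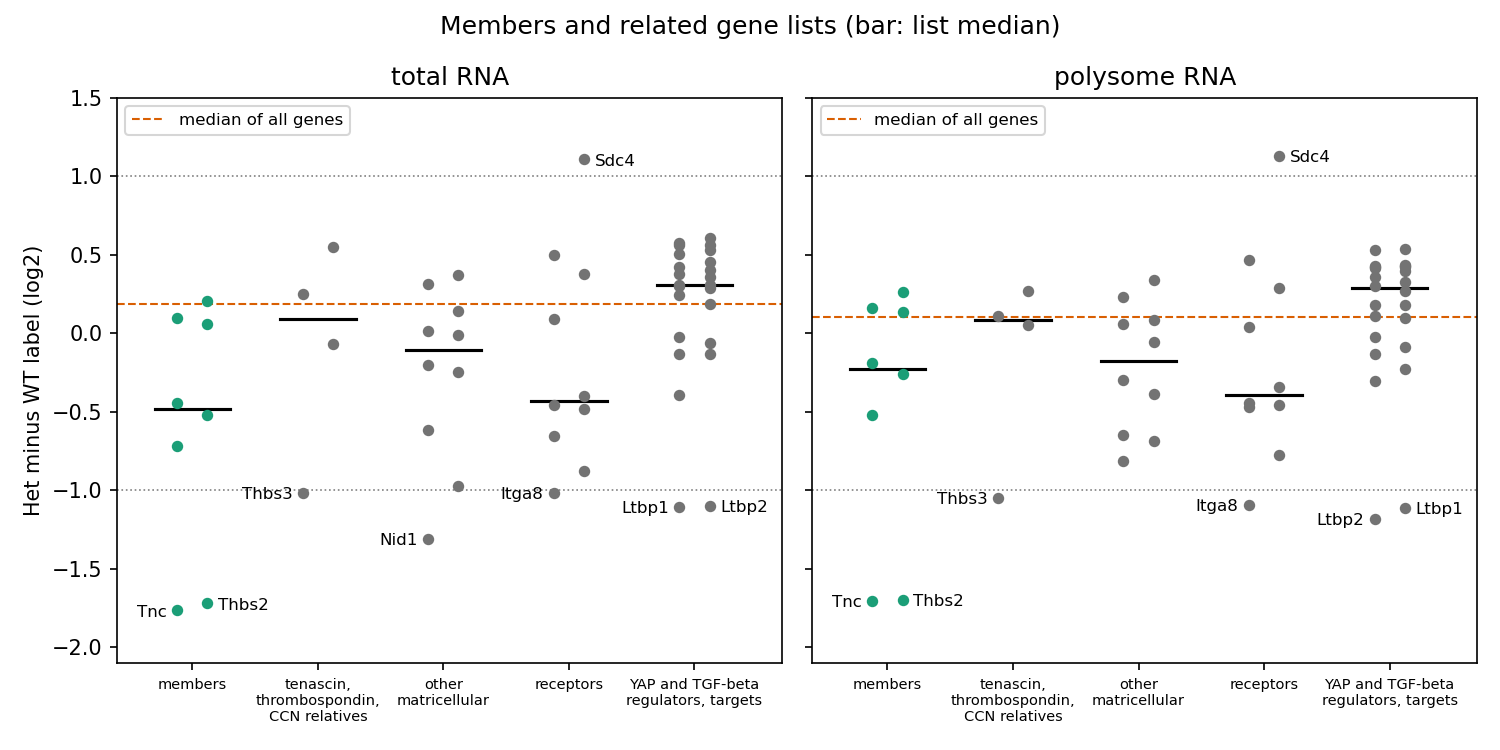
Difference between the heterozygote and wild-type label (vertical axis, log2) in total RNA (left) and polysome RNA (right) for the members and the genes of 4 related lists that reached the floor (horizontal axis), 1 point per gene. Bars are list medians, the dashed line is the median of all genes and dotted lines mark 2-fold. Tnc and Thbs2 lie lowest in both panels, and Sdc4 is the only gene above the upper dotted line.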

How the data were processed

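The deposited table holds 1 log2 value per probe set and array. Per the submitters' processing notes it was made with RMA, affy 1.56.0 and R 3.4.3; the settings and the genome build are not given in the sources used here. Per the labels' protocols, RNA from sucrose gradient fractions was copied to cDNA, which was transcribed with T7 polymerase and labelled with biotin. No detection calls were used, and precision is limited by the number of arrays. Of 22690 probe sets, 20393 have 1 symbol in the platform annotation, 691 several and 1555 are not listed; 64 are controls. The brightest probe set, by its mean over the 4 arrays, stands for a gene, which was kept where its highest value reached 7.53, the median of all values (7179 genes). Log2 differences were counted at 2-fold. No p-value was computed. The calculation, run in Python 3.11.15, was tested on simulated data. Members and lists were chosen with earlier results of these data known. The naming rule took all members, the 3 genes nearest in pattern to members past 2-fold between genotype labels, and list genes past 2-fold, or the 2 largest where none passed. Endothelial, epithelial, smooth muscle, and osteoblast and cartilage markers had 1, 1, 4 and 1 genes at or above the floor in total RNA labelled heterozygote, of 7, 6, 5 and 6 on the array.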

Additional observations from a re-analysis of the deposited data

Results flagged for a closer look

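At 5 probe sets the polysome-minus-total difference had one sign under the heterozygote label and the other under the wild-type label, each from 1 pair of arrays, and the difference between the labels was not tested. For Fn1 it differed by 0.25 at the brighter probe set (0.15 and -0.10) and by 0.49 at the dimmer (0.01 and -0.48). For Thbs1 it differed by 0.20 at the brighter probe set (0.00 and -0.19) and by -0.19 at the other (-0.09 and 0.10), so the Thbs1 probe sets went opposite ways. For Ccn2 it differed by 0.080 (0.04 and -0.04). These Thbs1 and Ccn2 values were smaller than the probe-set SD, 0.22. The left-out probe set shared by Thbs1 and Pald1 also had opposite signs (0.11 and -0.22) and differed by 0.33. For Ccn2 and the brighter Thbs1 probe set the opposite signs were seen on the deposited scale only. With the arrays centred on their medians, quantile normalisation or a loess trend subtracted, both were below 0 under both labels.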

How the results depend on the processing

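Tnc and Thbs2 stayed at least 2-fold lower under the heterozygote label in both kinds of RNA with centring, quantile normalisation and loess. Thbs2 did too with the mean of all probe sets, which could not change Tnc, a gene with 1 probe set. The rest of the 7 alternatives, of floor and probe set choice, could not change the value of either gene. At their brighter or only probe sets both genes passed 1.5-fold and 3-fold too. With the mean of all probe sets Thbs2 was less than 3-fold lower in both. Tnc ranged from -2.00 to -1.76 in total RNA and from -1.85 to -1.69 in polysome RNA, and Thbs2 from -1.93 to -1.38 and from -1.84 to -1.48. A change of floor cannot alter a member's value, and a change of probe set can alter only genes with several probe sets. With those unchanged values counted, 276 of 280 member values over all 5 comparisons moved by less than the probe-set SD. The other 4 came from the mean of all probe sets: Thbs2 at -1.38 and Fn1 at -0.06 in total RNA, and Thbs1 at -0.88 and Fn1 at 0.31 in polysome RNA, Fn1 there turning sign because its probe sets disagree. At 1.5-fold, 2 members rather than 0 were higher in polysome than in total RNA under each genotype label. Under the wild-type label Postn was below 1.5-fold, at 0.54, 0.55 and 0.56, with centring, quantile normalisation and loess, which leaves Thbs2, at 0.67, 0.68 and 0.66.

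The share of all genes past 2-fold, lower and higher together, between genotype labels was 1.73% for total and 1.25% for polysome RNA, 0.919% and 0.766% between fractions of the wild-type and of the heterozygote label, and 0% for the association difference. With a loess trend subtracted the first was 2.73%. With no floor the genotype shares were 1.04% and 0.767%, and with the floor at the 75th percentile the fraction share under the heterozygote label was 0.475%. At 1.5-fold the 5 shares were 13.7%, 7.94%, 5.21%, 3.59% and 0.306%, and at 3-fold the first 4 were 0.167%, 0.153%, 0.237% and 0.209%. Scaling changed the balance between fraction labels: under the heterozygote label 29 genes higher and 26 lower became 22 and 41 with centring, 22 and 36 with quantile normalisation and 23 and 41 with loess, and under the wild-type label 38 and 28 became 28 and 39, 28 and 44, and 24 and 46. No paired analysis was possible because each group has 1 array. Levels near the floor limit the values of Thbs3, Itga8 and the dimmest Itgav probe set.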

Other observations

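Values of these receptors and regulators outside the naming rule were looked up after the data were seen. The product of the integrin gene Itgav binds osteopontin, periostin and the CCN proteins. Itgav differed between genotype labels by -0.65 in total RNA and -0.46 in polysome RNA at its brightest probe set. It was at -1.48 and -1.79 at another, and at -1.54 and -1.94 at the dimmest. The dimmest read below the floor in total RNA labelled wild type (7.40) and in the total (5.86) and polysome (5.94) libraries labelled heterozygote, so the sizes of its folds are uncertain. Wwtr1, which encodes the YAP paralogue TAZ, was at 0.56 and 0.43 at its brightest probe set and at 1.11 and 0.89 at another. Tgfbr2, a TGF-beta receptor gene, was at 0.56 and 0.43 at its brightest probe set and at -0.35 and -0.43 at another that reached the floor, so its direction is not settled. Cd47, the thrombospondin 1 receptor gene, was at 0.50 and 0.29 at its brightest probe set and at 0.74 and 0.55, and 0.96 and 0.66, at the others that reached the floor.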
